A study of Mus musculus with 24 samples.

Results

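Peroxisomes take up their membrane proteins through PEX3, PEX16 and PEX19 and are divided by PEX11 proteins together with FIS1, MFF and DNM1L. The transcripts of these steps were followed here as a set of 8 listed genes, Pex3, Pex16, Pex19, Pex11a, Pex11g, Fis1, Mff and Dnm1l, out of 55335 genes counted in mouse kidneys with Pex5 intact or deleted in the renal tubule. All 8 were found by symbol, and all passed the filter on low counts. The question was whether RNA for building and dividing the peroxisomal membrane differed in kidneys in which import into the peroxisomal matrix had been targeted.

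RNA of whole kidneys from 24 C57BL/6J mice was sequenced, 6 mice in each of 4 groups. Mice of the genotype Pex5lox/lox/Pax8-rtTA/LC1 are called cKOm (males) and cKOf (females), and Pex5lox/lox littermates are called Ctrlm and Ctrlf. All 4 groups carried the floxed allele and all received doxycycline (DOX), starting at 8 weeks of age and lasting 2 weeks, and the experiments followed 4 weeks after the treatment had ended. The labels give 1 time of day for all experiments and another for the collection of tissue, so the hour of collection is uncertain. In cKO mice, Pax8-rtTA confines the DOX-driven Cre to the renal tubule, so glomerular, vascular and immune cells of the same kidney keep Pex5, and the controls lacked the transgenes.

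A peroxisome is bounded by a single membrane, and the machinery that inserts proteins into this membrane is separate from the one that imports enzymes into its lumen. PEX19 binds newly made membrane proteins in the cytosol, PEX3 is its docking partner on the membrane, and PEX16 brings PEX3 to the membrane. PEX11 proteins elongate the membrane, after which FIS1 and MFF recruit the dynamin-like GTPase DNM1L, which cuts the elongated organelle and which also divides mitochondria. PEX5 carries enzymes with a PTS1 signal into the lumen and takes no part in membrane assembly. Cells without PEX5 can therefore retain peroxisomal membranes that lack much of their content. The proximal tubule is among the cell types richest in peroxisomes.

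The number of reads assigned to genes ran from 19376152 to 28470831 per kidney. Levels are given as CPM, reads scaled to a common library size by TMM, and 3 counts, the lowest amount taken as detected, corresponded to between 0.105 and 0.155 CPM. The listed genes lay far above this floor, with at least 181 reads each in every kidney. Pex5 itself, counted over all exons and all cells, ranged from 49.0 to 62.7 CPM over Ctrlm mice (median 53.3) and from 41.8 to 47.2 over cKOm mice (median 42.9), with no overlap (log2 fold change -0.31, standard error 0.08, edgeR adjusted p = 0.0219). Among females, Ctrlf mice (42.9 to 61.7 CPM) and cKOf mice (38.0 to 48.5 CPM) overlapped (log2 fold change -0.21, standard error 0.08, edgeR adjusted p = 0.177). With a kidney left out, the female log2 fold change ran from -0.25 to -0.14. The highest adjusted p of these fits was 0.418 by edgeR, without Ctrlf mouse 5. The male difference did not pass with either hepatocyte marker score described below as a covariate (edgeR adjusted p = 0.706 and 0.217), without Ctrlm mouse 2 (edgeR adjusted p = 0.0656) or without cKOm mouse 4 (0.0505). The study itself reported lower relative Pex5 mRNA in both sexes, with some full-length Pex5 mRNA left in cKOf kidneys. That measure differs from the counts over all exons given here. The study also reported almost no PEX5 protein left in cKOm kidneys and some left in cKOf kidneys. For cKOf mice it proposed that excision was incomplete. By electron microscopy it found almost no peroxisomes in proximal tubules of cKO mice of either sex.

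Some kidneys stood apart. Ctrlf mouse 5 had the highest TMM factor of all kidneys (1.143). In counts per gene it differed more from each other Ctrlf mouse than those mice did from one another. It is not among the 3 kidneys described next. In 3 of the 24, 1 each of Ctrlm, Ctrlf and cKOf, transcripts of at least 7374 bp lay low relative to those of at most 3123 bp, by a log2 difference of -0.40 in Ctrlm mouse 5, -0.33 in Ctrlf mouse 4 and -0.55 in cKOf mouse 6, against -0.06 to 0.18 in the other 21. The 10 listed hepatocyte markers summed to 1613 to 3933 CPM per Ctrlm mouse, 799 to 1229 per cKOm mouse, 162 to 281 per Ctrlf mouse and 185 to 263 per cKOf mouse. None of the 10 was at 0 in all kidneys of a group. The hepatocyte marker score is the log2 of the summed CPM before TMM scaling. It was 10.52 to 11.85 in Ctrlm, 9.63 to 10.29 in cKOm and 7.37 to 8.10 in Ctrlf mice. With no overlap of Ctrlm with cKOm or Ctrlf mice, this covariate cannot be told apart from the group in those 2 comparisons. Most of the male sum was Cyp2e1, with 1395 to 3015 CPM per Ctrlm mouse and 701 to 1095 per cKOm mouse, while albumin (Alb) was at 224 to 661 CPM in Ctrlm mice 1 to 4, at 235 CPM in cKOm mouse 4 and at 15.1 to 34.5 CPM in the other males. Without Cyp2e1 the score overlapped between the male groups, with 6.36 to 9.78 in Ctrlm and 6.17 to 8.86 in cKOm mice. The 8 proximal tubule markers, all present, summed to 9201 to 10330 CPM per Ctrlm mouse, 7709 to 8479 per cKOm mouse, 9247 to 10420 per Ctrlf mouse and 8544 to 9731 per cKOf mouse. The lower sum of cKOm mice was not shared by every marker. Mean Slc34a1 fell from 3748 to 2976 CPM and mean Lrp2 from 2587 to 2065 CPM. Slc5a12 rose from 319 to 494 CPM and Slc5a2 from 326 to 348 CPM, and the other markers had lower means. In whole-kidney RNA, fewer cells of a type, less RNA per cell and changes of single marker genes cannot be told apart.

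In males, 2 of the 8 genes passed the threshold of an adjusted p of 0.05, 1 higher (Pex11a) and 1 lower (Pex11g). Among all 16092 genes tested, 9.05% passed in males, 4.14% higher and 4.90% lower. In females, 1 of 8 passed, Pex11a, which was higher again, where 0.851% of all genes passed and 0.391% passed as higher. The same genes were those whose groups did not overlap, 2 in males, where 7.38% of all genes had no overlap, and 1 in females, where 0.559% had none. The list had median log2 fold changes of -0.05 (males) and 0.02 (females), against 0.01 and 0.00 over all genes tested. The 6 genes other than the Pex11 pair had log2 fold changes between -0.12 and 0.16 in males, and the 7 genes other than Pex11a had values between -0.07 and 0.07 in females. With 6 mice per group, the 95% intervals of these genes together reached from -0.37 to 0.34 in males and from -0.27 to 0.39 in females.

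**Figure D1:**
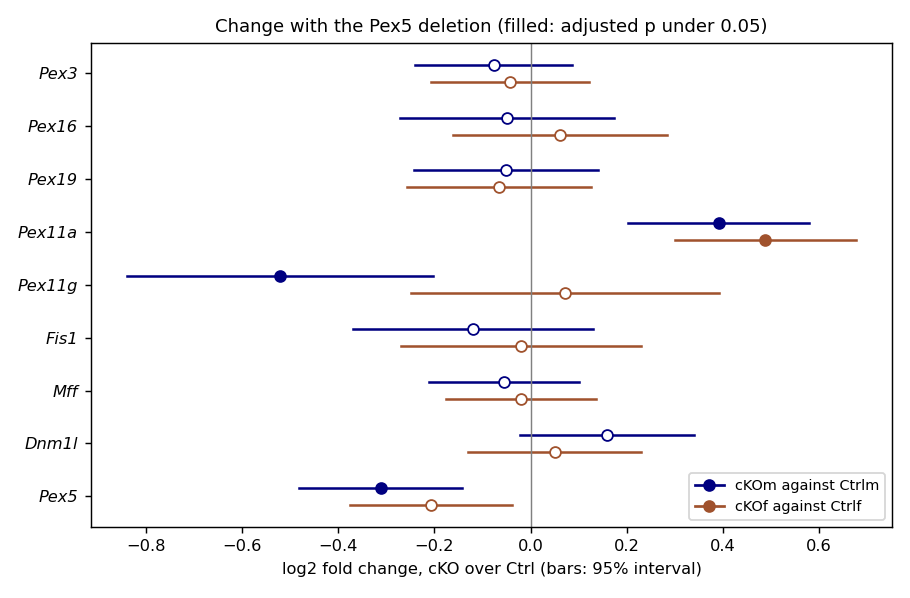
Log2 fold change of each gene, cKO over Ctrl, with its 95% interval from edgeR, in males and in females, with the targeted gene Pex5 in the lowest row. Filled points had an adjusted p under 0.05. Pex11a lay at 0.39 in males and 0.49 in females, Pex11g at -0.52 in males and 0.07 in females, and the other 6 listed genes between -0.12 and 0.16.

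The levels of different genes were compared per kb of exon. In Ctrlm mice the order was Fis1 (31.8 ± 6.48 CPM per kb, SD, n = 6), Pex19 (21.1 ± 2.42), Dnm1l (20.5 ± 1.39), Pex11a (15.5 ± 1.99), Pex16 (10.9 ± 1.46), Pex3 (9.82 ± 0.559), Mff (7.12 ± 0.477) and Pex11g (5.38 ± 1.30). Of neighbours in this order, Pex19 and Dnm1l overlapped in their ranges over mice, as did Pex16 and Pex3, and Mff and Pex11g, while the other neighbours did not. In Ctrlf mice the levels were 29.4 ± 2.99 CPM per kb for Fis1, 20.9 ± 2.45 for Dnm1l, 20.5 ± 3.13 for Pex19, 13.6 ± 1.26 for Pex11a, 10.1 ± 1.55 for Pex16, 9.90 ± 0.815 for Pex3, 6.93 ± 0.872 for Mff and 3.66 ± 0.545 for Pex11g (SD, n = 6). The order was the same apart from Dnm1l and Pex19, neighbours that lay within their spread. Exons of all isoforms are pooled in these lengths, which bears on Mff, whose 9757 bp of annotated exon is the longest of the 8. With Pex5 targeted, Pex11a reached 20.3 ± 1.52 CPM per kb (cKOm) and 19.1 ± 2.39 (cKOf, SD, n = 6), which put it close to Pex19 in the same mice (20.4 ± 0.905 and 19.6 ± 2.22).

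**Figure D2:**
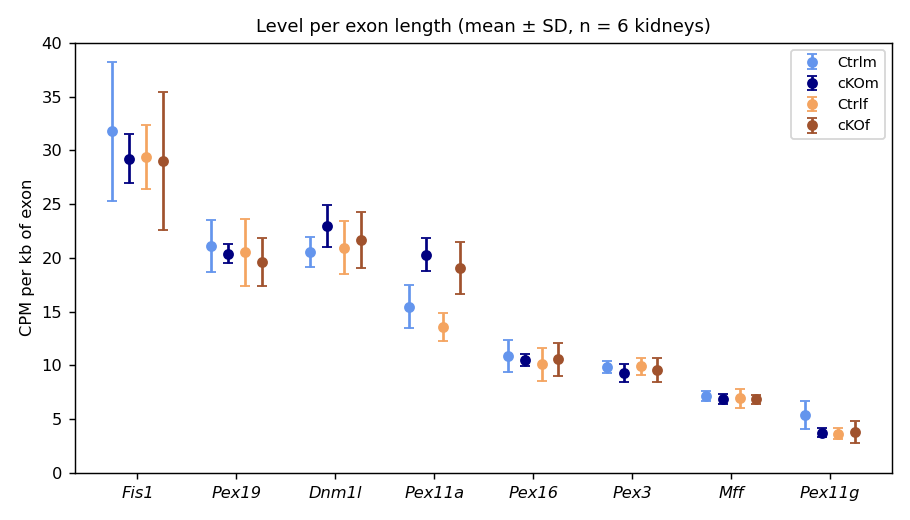
CPM per kb of exon (mean ± SD, 6 kidneys per group) of the 8 genes, ordered by their level in Ctrlm mice. Fis1 was the highest at 31.8 and Pex11g the lowest at 5.38 in Ctrlm mice, and the cKO points of Pex11a lay above both control points.

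Among the genes of membrane assembly, none differed past the threshold. Pex3, the docking site for PEX19, lies on chromosome 10 of GRCm38 (13523842 to 13553142, minus strand). Ctrlm mice ranged from 43.6 to 50.1 CPM (median 46.0), cKOm mice from 39.9 to 50.8 (median 43.0), Ctrlf mice from 41.5 to 51.5 (median 47.7) and cKOf mice from 37.6 to 52.9 (median 44.6). All 4 groups overlapped, with log2 fold changes of -0.08 in males (95% interval -0.24 to 0.09, edgeR adjusted p = 0.725) and -0.04 in females (-0.21 to 0.12, edgeR adjusted p = 0.870).

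Pex16, whose protein brings PEX3 to the membrane, lies on chromosome 2 (92374676 to 92381217, plus strand). Ctrlm mice ranged from 16.01 to 22.7 CPM (median 19.8), cKOm mice from 17.2 to 20.1 (median 18.5), Ctrlf mice from 14.5 to 22.4 (median 17.5) and cKOf mice from 14.98 to 22.3 (median 18.8). The cKOm mice lay inside the range of the Ctrlm mice. Log2 fold changes were -0.05 in males (95% interval -0.27 to 0.17, edgeR adjusted p = 0.890) and 0.06 in females (-0.16 to 0.28, edgeR adjusted p = 0.861). Its exons share 127 bp with Large2 on the opposite strand, and whether the counting used the strand is not given in the sources used here, although the library kit keeps it.

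Pex19, the carrier of membrane proteins, lies on chromosome 1 (172126755 to 172136493, plus strand). Ctrlm mice ranged from 72.2 to 94.7 CPM (median 76.5), cKOm mice from 72.5 to 82.7 (median 78.1), Ctrlf mice from 66.6 to 98.0 (median 73.5) and cKOf mice from 60.6 to 86.3 (median 76.1). In each of the groups Ctrlm and Ctrlf, 2 mice lay well above the other 4, and both cKO ranges overlapped those of the controls. On the log2 scale cKO mice differed by -0.05 in males (95% interval -0.24 to 0.14, edgeR adjusted p = 0.864) and -0.07 in females (-0.26 to 0.13, edgeR adjusted p = 0.816).

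**Figure D3:**
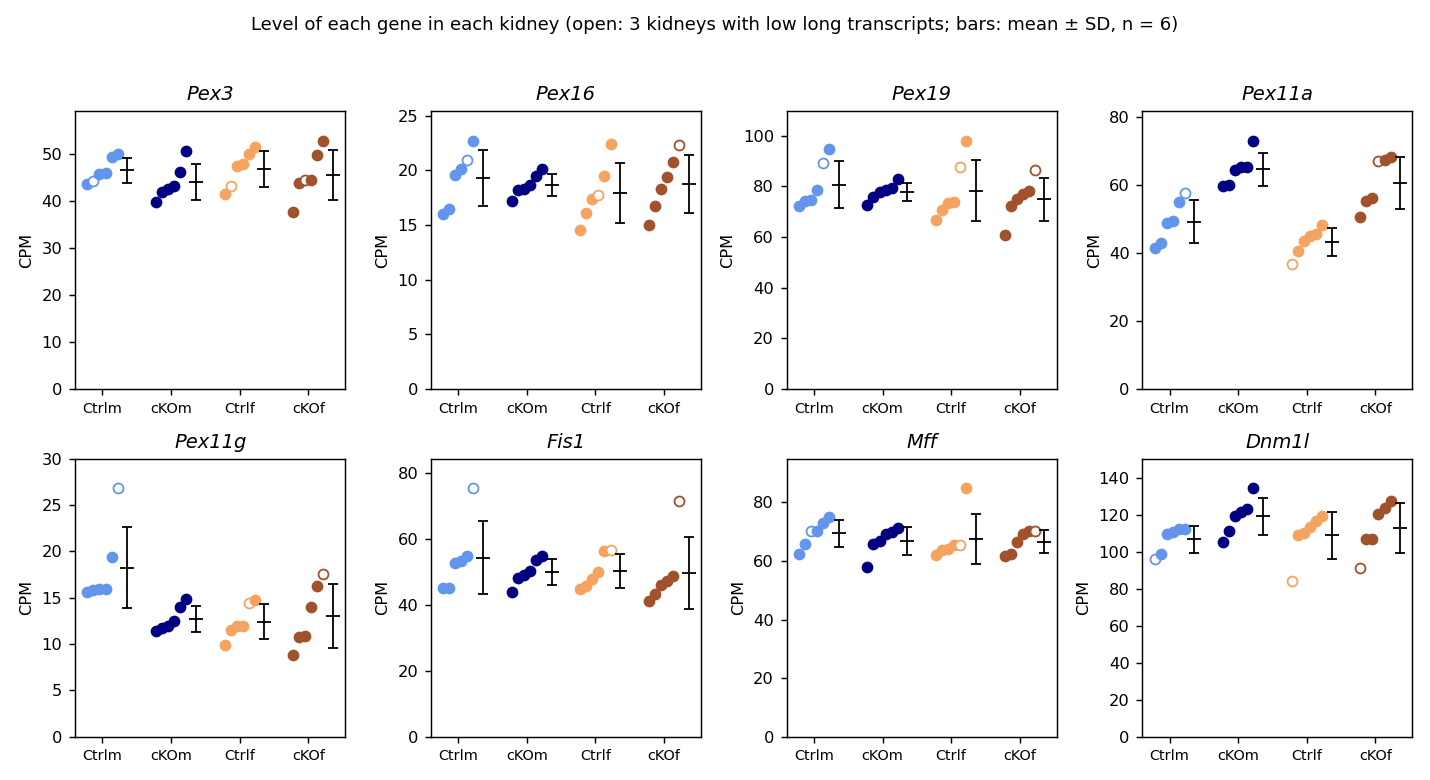
CPM of the 8 genes in each of the 24 kidneys, by group, with the mean and SD (n = 6) beside the points. Open points are the 3 kidneys with low long transcripts. All 6 cKO points of Pex11a lie above all 6 control points in both sexes, and all 6 cKOm points of Pex11g lie below the 6 Ctrlm points.

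Pex11a and Pex11g belong to the same family of membrane-elongating proteins, and their promoters are shown for comparison. They are the listed genes that passed the threshold between genotypes. Pex11g did so in males only, close to the threshold, and lost the call in 19 of 36 alternative analyses. The windows cover 250 bases before to 50 after the RefSeq start, on GRCm38.p6, both on the minus strand. Capitals mark matches, on either strand, to 4 motifs: AGGTCA (a nuclear receptor half-site), TGACGTCA (the cAMP response element), TTCCGG (an ETS core) and GGGCGG (a GC box).
Pex11a, chr7:79743082-79743381: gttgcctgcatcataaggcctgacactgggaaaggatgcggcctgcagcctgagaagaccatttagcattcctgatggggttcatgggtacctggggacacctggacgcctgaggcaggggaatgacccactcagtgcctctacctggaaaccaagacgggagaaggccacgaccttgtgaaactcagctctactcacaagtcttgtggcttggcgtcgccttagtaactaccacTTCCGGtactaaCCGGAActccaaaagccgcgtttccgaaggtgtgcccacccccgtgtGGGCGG
Pex11g, chr8:3467599-3467898: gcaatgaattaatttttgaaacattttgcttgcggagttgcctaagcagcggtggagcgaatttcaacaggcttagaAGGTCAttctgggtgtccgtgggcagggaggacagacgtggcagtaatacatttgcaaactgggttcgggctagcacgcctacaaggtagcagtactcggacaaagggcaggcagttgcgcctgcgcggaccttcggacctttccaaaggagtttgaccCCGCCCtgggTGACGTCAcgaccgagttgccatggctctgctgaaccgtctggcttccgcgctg
The Pex11a window held TTCCGG on one strand, 15 bases before the start, and again on the other strand as CCGGAA, 3 bases before it, and a GGGCGG 45 bases past the start. TTCCGG was present in 14.9% and GGGCGG in 35.7% of the 32851 promoter windows of this length. The Pex11g window held AGGTCA 173 bases before the start, CCGCCC, the other strand of GGGCGG, 14 bases before it and TGACGTCA 4 bases before it. AGGTCA was present in 16.3% and TGACGTCA in 1.79% of all windows. The DR1 element, a direct repeat of AGGTCA spaced by 1 base, to which PPAR alpha binds with its RXR partner, was in 0.0396% of all windows and in none of the 11 windows found for 7 of the listed genes. CCAAT, in 37.4% of all windows, was in neither Pex11 window. These matches describe letters in short windows and say nothing of binding. The motifs were chosen after the sequences had been seen.

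Pex11a was higher in cKO mice of both sexes. The gene, on chromosome 7 (79735957 to 79743131, minus strand), encodes a PEX11 isoform known for its induction by peroxisome proliferators in rodent liver. Among males, Ctrlm mice ranged from 41.6 to 57.7 CPM (median 49.1) and cKOm mice from 59.8 to 72.9 CPM (median 64.8). Among females, Ctrlf mice ranged from 36.7 to 48.1 CPM (median 44.2) and cKOf mice from 50.4 to 68.0 CPM (median 61.4). Every cKO mouse lay above every control of its sex.

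Ctrlm mice averaged 49.2 ± 6.34 CPM of Pex11a and cKOm mice 64.6 ± 4.83, and Ctrlf mice averaged 43.2 ± 4.00 and cKOf mice 60.6 ± 7.61 (SD, n = 6). Males differed by 0.39 on the log2 scale (standard error 0.09, edgeR adjusted p = 0.00847), which is an increase of 31.2% with a 95% interval from 15.2% to 49.5%. Females differed by 0.49 (standard error 0.09, edgeR adjusted p = 0.00100), an increase of 40.3% with an interval from 23.1% to 59.9%. The two-sided exact permutation test gave p = 0.00216 in each sex, the lowest that groups of 6 can reach. The changes in the 2 sexes differed by -0.10 on the log2 scale, male minus female (95% interval -0.36 to 0.17, edgeR adjusted p = 0.801).

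The female difference of Pex11a passed in all 36 alternative analyses, with log2 fold changes from 0.41 to 0.54. The male difference passed in 34 of 36. It missed the threshold without Ctrlm mouse 6 (log2 fold change 0.32, edgeR adjusted p = 0.0539) and with a hepatocyte marker score that leaves out Cyp2e1 as a covariate (0.40, edgeR adjusted p = 0.0610), and with the score that includes Cyp2e1 it was 0.72 (edgeR adjusted p = 0.0161). The sums of hepatocyte and of proximal tubule markers did not overlap between Ctrlm and cKOm mice and were lower in cKOm mice, and in females both overlapped between genotypes. Without Cyp2e1 the hepatocyte score overlapped between Ctrlm and cKOm mice, while each hepatocyte marker had a lower mean in cKOm mice. Mean Alb, for example, was 321 CPM in Ctrlm and 61.9 CPM in cKOm mice. The part of the proximal tubule markers in the Pex11a difference was not tested.

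Pex11g differed in the other direction, in males, and close to the threshold. The gene lies on chromosome 8 (3457105 to 3467680, minus strand) and encodes PEX11 gamma. Ctrlm mice ranged from 15.6 to 26.8 CPM (median 15.95) and cKOm mice from 11.4 to 14.9 CPM (median 12.2). Ctrlf mice ranged from 9.92 to 14.8 CPM (median 11.9) and cKOf mice from 8.81 to 17.6 CPM (median 12.4). The Ctrlm mice lay above all cKOm and all Ctrlf mice, and the cKOf range enclosed the Ctrlf range.

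Mean levels of Pex11g were 18.3 ± 4.42 CPM for Ctrlm, 12.7 ± 1.38 for cKOm, 12.4 ± 1.85 for Ctrlf and 13.05 ± 3.48 for cKOf mice (SD, n = 6). Males differed by -0.52 on the log2 scale (standard error 0.16, 95% interval -0.84 to -0.20, edgeR adjusted p = 0.0490), with p = 0.00216 in the two-sided exact permutation test. Females differed by 0.07 (standard error 0.16, 95% interval -0.25 to 0.39, edgeR adjusted p = 0.891). The difference between the sexes in this change was -0.59 (standard error 0.22) and did not pass after adjustment (edgeR unadjusted p = 0.0121 and edgeR adjusted p = 0.195). A change in males alone was therefore not shown.

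The male call of Pex11g was lost in 19 of 36 alternative analyses, although the direction stayed negative in all of them, with log2 fold changes from -0.59 to -0.38. It was lost in 14 of the 24 analyses that each left out 1 mouse. The highest adjusted p among these came without Ctrlm mouse 5, one of the 3 kidneys with low long transcripts, whose 26.8 CPM was the highest of all (log2 fold change -0.38, edgeR adjusted p = 0.163). Leaving out all 3 such kidneys gave -0.40 (edgeR adjusted p = 0.0726), and with the long-to-short difference of each kidney as a covariate it was -0.50 (edgeR adjusted p = 0.00832). It was -0.49 with limma-voom (adjusted p = 0.0601), -0.50 with the replicate number as a block (edgeR adjusted p = 0.0966), -0.44 with the hepatocyte marker score (edgeR adjusted p = 0.756) and -0.55 with the score that leaves out Cyp2e1 (edgeR adjusted p = 0.136). Hepatocyte and proximal tubule marker sums were both lower in every cKOm than in every Ctrlm mouse, as Pex11g was. Without Cyp2e1 the hepatocyte score overlapped, while each hepatocyte marker had a lower mean in cKOm mice. The part of the proximal tubule markers in these results was not tested. Gm44775 shares 1396 bp of exon with Pex11g on the opposite strand. Gm44775 had 82 reads over the 24 kidneys and Pex11g had 7468.

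Pex11g was also the single gene of the list that passed between control males and control females, or 1 of 8, where 16.8% of all genes tested passed and 7.35% had no overlap. It was 0.55 higher in Ctrlm than in Ctrlf mice on the log2 scale (standard error 0.16, edgeR adjusted p = 0.0126), an excess of 46.8% with a 95% interval from 17.7% to 83.0%, and the groups did not overlap. This did not pass without Ctrlm mouse 5 (0.41, edgeR adjusted p = 0.0535), with the hepatocyte marker score (0.32, adjusted p = 0.998) or with the score that leaves out Cyp2e1 (0.59, adjusted p = 0.0669). The score that includes Cyp2e1 did not overlap between these groups, so the fit with it cannot separate the score from sex. The 10 hepatocyte markers were all higher in Ctrlm than in Ctrlf mice, with a median log2 difference of 3.29. For Pex11a the difference between control males and females was 0.19 (edgeR adjusted p = 0.181), and the other 6 lay between -0.03 and 0.11. In the test of the interaction of genotype and sex, 0 of 8 genes passed with edgeR, where 2.31% of all genes did, and 1 of 8 (Pex11g) had an unadjusted p under 0.05, where 13.4% of all genes did. DESeq2 and limma-voom also called 0 of 8.

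The genes of the division step did not differ past the threshold in either sex. Fis1, a tail-anchored adaptor of the outer mitochondrial and peroxisomal membranes, lies on chromosome 5 (136953275 to 136966234, plus strand). Ctrlm mice ranged from 45.1 to 75.4 CPM (median 53.1), cKOm mice from 44.1 to 54.9 (median 49.8), Ctrlf mice from 45.0 to 56.6 (median 49.1) and cKOf mice from 41.3 to 71.6 (median 46.7). The highest values of Ctrlm and cKOf, 75.4 and 71.6 CPM, came from 2 of the 3 kidneys with low long transcripts. Fold changes on the log2 scale were -0.12 in males (95% interval -0.37 to 0.13, edgeR adjusted p = 0.716) and -0.02 in females (-0.27 to 0.23, edgeR adjusted p = 0.967).

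Mff, the membrane receptor for DNM1L, lies on chromosome 1 (82724890 to 82752394, plus strand). Ctrlm mice ranged from 62.4 to 75.1 CPM (median 70.3), cKOm mice from 58.1 to 71.3 (median 68.0), Ctrlf mice from 62.2 to 84.8 (median 64.7) and cKOf mice from 61.9 to 70.2 (median 67.8). The groups overlapped, and 1 Ctrlf mouse stood above all others. The log2 fold change was -0.06 in males (95% interval -0.21 to 0.10, edgeR adjusted p = 0.804) and -0.02 in females (-0.18 to 0.14, edgeR adjusted p = 0.944), the narrowest intervals of the 8 genes.

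Dnm1l, the GTPase of the division step, lies on chromosome 16 (16312230 to 16358959, minus strand). Levels in Ctrlm mice ranged from 96.3 to 113 CPM (median 110.3) and cKOm mice from 105 to 134 (median 121), and 5 of 6 cKOm mice lay above the Ctrlm median. Ctrlf mice ranged from 84.1 to 119 CPM (median 112) and cKOf mice from 91.2 to 128 (median 114). The male log2 fold change was 0.16 (95% interval -0.02 to 0.34, edgeR adjusted p = 0.403), while the two-sided exact permutation test on this gene alone gave an unadjusted p = 0.0325. The female value was 0.05 (95% interval -0.13 to 0.23, edgeR adjusted p = 0.859). The lowest values of Ctrlm, Ctrlf and cKOf mice were from the 3 kidneys with low long transcripts.

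Deviations from the group mean were compared over the 24 kidneys to see which of the genes moved together from mouse to mouse. Over the 28 pairs, Pearson's r of log2 CPM ran from -0.63 to 0.77 with a median of 0.08. Genes of 1 kidney share its library and depth, so the coefficients are a description. Pex16 and Pex19 had the highest r (0.77, and 0.77 without the 3 kidneys with low long transcripts). Both genes had their highest deviation in Ctrlf mouse 5 (0.34 each) and their lowest in cKOf mouse 3 (-0.31 and -0.30). These mice were kept in both values. Fis1 and Pex11g had 0.68, which fell to 0.27 without the 3 kidneys, and Fis1 and Dnm1l had -0.63, which became -0.26.

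The gene most like each listed gene by the same measure, among 13028 protein-coding genes, was Sntb1 for Pex3 (r = 0.81), Zswim7 for Pex16 (0.86), Trappc4 for Pex19 (0.88), Slc25a34 for Pex11a (0.79), Rab38 for Pex11g (0.81), Tpi1 for Fis1 (0.92), Fundc2 for Mff (0.83) and Chm for Dnm1l (0.91). Next came Dcaf6 for Pex3 (0.77), Cda for Pex16 (0.86), Acp5 for Pex11a (0.78), Sharpin for Pex11g (0.80), Eif5a for Fis1 (0.91) and Sdhaf4 for Mff (0.82). Without the 3 kidneys, r was between 0.645 and 0.779 for Rab38, Sharpin, Tpi1, Chm and Slc25a34, and between 0.755 and 0.855 for the other 9 named here.

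**Figure D4:**
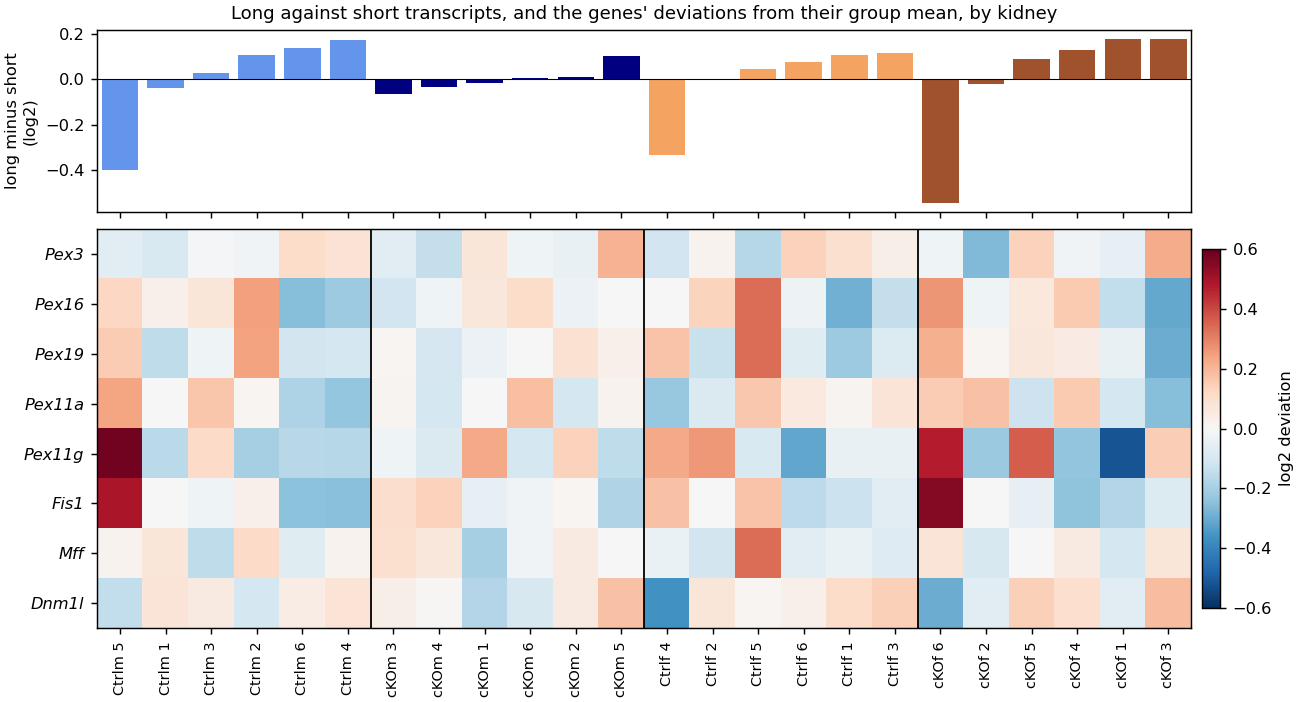
Upper panel, log2 difference between transcripts of at least 7374 bp and of at most 3123 bp in each kidney. Lower panel, log2 deviation of each gene from its group mean, with kidneys of a group ordered by the upper panel. The leftmost kidney of Ctrlm, Ctrlf and cKOf, at -0.40, -0.33 and -0.55 in the upper panel, had high Fis1 and Pex11g and low Dnm1l.

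Around the listed genes stand the other parts of the peroxisome. Of 10 matrix import peroxins tested, 1 was lower in males, Pex5 itself, and 0 passed in females by edgeR (2 at an unadjusted p under 0.05, where 6.73% of all genes tested had one). Of 11 other peroxisomal membrane proteins tested, 3 were higher and 2 lower in males and 1 was higher in females, where 4.14% of all genes were higher and 4.90% lower in males and 0.391% were higher in females. With the hepatocyte marker score as a covariate the male count was 0, but that score cannot be told apart from the male groups. With the score that leaves out Cyp2e1 the male count was 2, so not all of the male calls given next passed with it. The sums of hepatocyte and of proximal tubule markers did not overlap between Ctrlm and cKOm mice, as given above, the former only with Cyp2e1 included. The part of the proximal tubule markers was not tested. Abcd3, a transporter of fatty acyl-CoA into peroxisomes and their most abundant membrane protein in many tissues, rose from 477 ± 27.1 to 674 ± 59.4 CPM in males (log2 fold change 0.50, edgeR adjusted p = 0.000206) and from 415 ± 56.6 to 555 ± 41.0 CPM in females (SD, n = 6) (0.42, edgeR adjusted p = 0.00146). Pxmp4 rose from 106 ± 14.6 to 132 ± 4.89 CPM in males (0.32, edgeR adjusted p = 0.0154) and had 91.7 ± 8.01 and 109 ± 9.41 CPM in control and cKO females (SD, n = 6) (0.24, edgeR adjusted p = 0.0878). Acbd4, which tethers peroxisomes to the endoplasmic reticulum, fell from 92.8 ± 20.9 to 59.9 ± 4.13 CPM in males (-0.63, edgeR adjusted p = 0.00213), with 70.6 ± 10.9 and 67.5 ± 10.6 CPM in females (SD, n = 6) (-0.06, edgeR adjusted p = 0.877). Far1, the reductase that supplies fatty alcohol for ether lipids, fell from 276 ± 20.8 to 199.9 ± 10.6 CPM in males (-0.46, edgeR adjusted p = 0.00400), with 180.0 ± 26.1 and 176 ± 27.7 CPM in females (SD, n = 6) (-0.03, edgeR adjusted p = 0.931).

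Of 6 genes for contact with the endoplasmic reticulum and for movement of peroxisomes, 1 was lower in males, again Acbd4, and 0 passed in females (0 at an unadjusted p under 0.05). Over all genes tested, 4.90% were lower in males and 0.851% passed in females, where 6.73% had an unadjusted p under 0.05. Of 10 further genes of organelle division tested, 1 was lower in males and 0 passed in females (2 at an unadjusted p under 0.05). The gene lower in males was Mtfr1, a regulator of mitochondrial fission, which went from 151 ± 14.1 CPM (Ctrlm) to 128 ± 7.29 (cKOm, SD, n = 6), with a log2 fold change of -0.24 (edgeR adjusted p = 0.0302). With either hepatocyte marker score as a covariate, 0 genes of each of these lists passed in males. Of 5 mitochondrial fusion genes, 0 passed in either sex by edgeR (1 in each at an unadjusted p under 0.05, which 25.1% of all genes had in males), with median log2 fold changes of 0.09 (males) and 0.03 (females).

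PPAR alpha is a lipid-sensing receptor that induces enzymes of fatty acid oxidation, and Pex11a is counted among its targets in rodent liver. Of 15 other PPAR alpha target genes, 12 were higher and 1 lower in males, with a median of 1.28 on the log2 scale, and 8 were higher in females, with a median of 0.96. Over all genes tested, 4.14% were higher in males and 0.391% in females, and the medians were 0.01 and 0.00. The list was chosen with earlier results of these data known, so its counts are a description and no independent support. With the hepatocyte marker score as a covariate, 5 of the 15 passed in males, and with the score that leaves out Cyp2e1 12 did. The change of Pex11a, 0.39 and 0.49, was smaller than these medians in both sexes. Acot3, a peroxisomal thioesterase, rose from 16.1 ± 5.77 to 64.4 ± 8.32 CPM in males and from 64.9 ± 7.04 to 127 ± 18.9 CPM in females (SD, n = 6). Acaa1b, a peroxisomal thiolase, rose from 228 ± 43.4 to 537 ± 80.9 CPM in males and from 285 ± 49.0 to 626 ± 159 CPM in females (SD, n = 6). The lower gene, named after its value was seen, was Acadm, a mitochondrial dehydrogenase of medium-chain acyl-CoA (log2 fold change -0.52 in males, edgeR adjusted p = 0.0153).

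**Figure D5:**
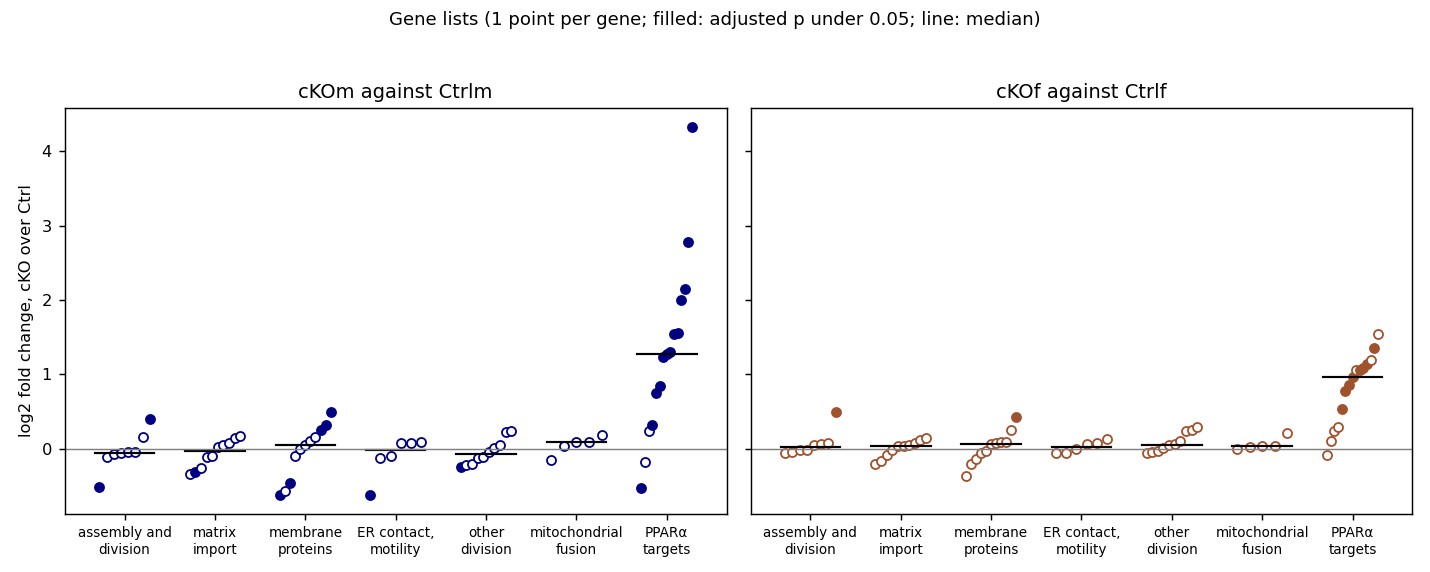
Log2 fold change, cKO over Ctrl, of every gene of the 8 listed genes and of 6 other lists, in males and in females, with 1 point per gene and a line at the median. Filled points had an adjusted p under 0.05. The PPAR alpha targets had medians of 1.28 and 0.96, and the medians of the other lists lay between -0.08 and 0.09.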

How the data were processed

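RNA from whole kidneys of 24 mice was analysed. The authors deposited 1 file per kidney with unnormalized counts of reads per gene, made, per the submitters' processing notes, with cutadapt 1.8, STAR 2.5.3a and HTSeq 0.9.1 on GRCm38. Of 55335 genes, 55154 were found in GENCODE M21, which gave symbols, positions and exon lengths. Between 34.0% and 41.5% of reads were set aside. Most of these aligned to more than 1 place, and the others were on no gene or on several. The 41.5% was that of cKOm mouse 4, and the next highest was 36.1%.

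Groups came from the labels. Kidneys with 1 number in different groups are different mice. Kidneys of a group differed by more than counting noise (chi-square per degree of freedom 9.83 to 99.2 over 60 pairs), so p-values and 95% intervals, both from edgeR, measure the spread between mice, and the floor on counts covers counting error only. The 16092 genes reaching 1 CPM in any kidney were compared with edgeR 4.0.16 in R 4.3.3 (TMM, 1 model of 4 groups, quasi-likelihood tests). Adjustment (Benjamini-Hochberg) covered the tests of both sexes at once, and all genes of 1 contrast for the interaction and for the control sexes. Log2 CPM had a prior count of 2, and single genes were compared by two-sided exact permutation tests over 924 arrangements. On simulated data of 16092 genes with 200 changed by a log2 value of 1, 193 were recovered in males and 191 in females, with 3 false calls each. That change is larger than the change of any listed gene, so the recovery says nothing of power for changes of their size.

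The genes and lists were chosen with earlier results of these data known. All listed genes and Pex5 are named, from each list at most the 4 with the smallest p among genes past the threshold, and the 2 genes most like each listed gene, of which some are not reported here. Promoters are from RefSeq, where 7 of 8 genes matched. Transcripts were compared by BLAST 2.17.0 (at least 95% identity over 100 bases), which found matches at opposite-strand overlaps only. The alternatives were RLE, DESeq2 1.42.0, limma-voom (limma 3.58.1), 2 other filters, sexes fitted apart, sexes adjusted apart, the labels' replicate number as a block, a hepatocyte marker score as a covariate and each kidney left out in turn. The score without Cyp2e1, the long-to-short difference as a covariate, and the analysis without 3 kidneys were added after seeing the data. Tables were made with Python 3.11.15 and scipy 1.17.1. Other experiments of the study were not analysed here.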

Additional observations from a re-analysis of the deposited data

Results flagged for a closer look

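Dixon's test for a single value apart from the rest of its group of 6 was applied to the 8 genes and Pex5 in 4 groups. It marked 5 of 36 groups, and chance marks about 1 in 20. Of the 5, 4 were values of the 3 kidneys with low long transcripts. Pex11g was at 26.8 CPM in Ctrlm mouse 5, with the next highest Ctrlm mouse at 19.4. Fis1 was at 75.4 CPM in the same kidney, with the next at 54.8, and at 71.6 CPM in cKOf mouse 6, with the next at 48.8. Dnm1l was at 84.1 CPM in Ctrlf mouse 4, below the next lowest at 109. The fifth was Mff in Ctrlf mouse 5, at 84.8 CPM with the next at 65.4, a kidney whose long-to-short difference was 0.04. No explanation for these values was tested.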

How the results depend on the processing

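Over 36 alternatives the male count of 2 genes past the threshold was 1 with limma-voom, with the replicate number as a block, with the hepatocyte marker score and without the 3 kidneys, 0 with the score without Cyp2e1, and between 1 and 2 when each kidney was left out in turn. The female count stayed at 1 and the interaction count at 0 in all alternatives run. With the block, the calls that changed were those of Pex11g in males. Same-numbered mice did not deviate together (r from -0.06 to 0.12 in males and from -0.20 to 0.08 in females), so the numbers do not pair them. The count between the sexes of the controls was 0 with both hepatocyte scores and between 0 and 1 with a kidney left out. Pex5 in males was -0.26 with either hepatocyte score, and from -0.37 to -0.27 with a kidney left out. In males and between the control sexes, the score that includes Cyp2e1 did not overlap between groups, so its fits cannot separate score from group. The cause of the other shifts was not tested.

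Signs changed for values that passed in no analysis, all as log2 differences. With the hepatocyte score, the male change was 0.19 for Pex16 and 0.14 for Fis1, the interaction was 0.15 for Pex16, 0.26 for Pex11a and 0.18 for Fis1, and the control males minus females were 0.37 for Pex3, -0.59 for Pex16, -0.078 for Pex19, -0.78 for Pex11a, -0.65 for Fis1, 0.22 for Dnm1l and -0.033 for Pex5. With the score without Cyp2e1, Pex16 was 0.062 in males and -0.038 between control sexes, and Pex3 0.036. Without the 3 kidneys, Pex16 in females was -0.01, and the interaction was 0.011 for Pex11a and 0.10 for Fis1. The interaction of Pex19 was -0.0054 with RLE, -0.0052 with DESeq2, -0.0050 with every gene with a count and -0.0068 with 1 CPM in at least 6 kidneys, where Pex3 between control sexes was 0.0093, 0.0098, 0.0082 and 0.0011.

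With a kidney left out, changes in females ran from -0.090 to 0.0070 for Pex3, -0.11 to 0.012 for Pex19, -0.031 to 0.16 for Pex11g, -0.15 to 0.028 for Fis1, -0.043 to 0.058 for Mff and -0.023 to 0.10 for Dnm1l. In males they ran from -0.13 to 0.0032 for Pex16 and from -0.11 to 0.0004 for Pex19. Interactions ran from -0.094 to 0.013 for Pex3, -0.088 to 0.066 for Pex19, -0.18 to 0.032 for Fis1 and -0.14 to 0.0023 for Mff, and control sexes from -0.029 to 0.017 for Pex3, -0.010 to 0.14 for Pex19 and -0.0043 to 0.18 for Fis1.

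Of list counts in males, the hepatocyte score gave 0 for matrix import, membrane proteins, endoplasmic reticulum contact and other division genes, and 5 for PPAR alpha targets. The score without Cyp2e1 gave 0, 2, 0 and 0 for the first 4 of these. Every gene with a count gave 3 membrane proteins. Without the 3 kidneys and with the long-to-short difference, matrix import and other division genes had 2 each. In females, the long-to-short difference gave 2 for membrane proteins and 2 for other division genes, and the analysis without the 3 kidneys gave 1 fusion gene.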

Other observations

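Other cell types of the kidney were followed by short lists of marker genes, counted here by edgeR's adjusted p. Over all genes tested, 4.14% were higher and 4.90% lower in males, and 0.851% passed in females. An unadjusted p under 0.05 was found for 25.1% of all genes in males and 6.73% in females. Of 8 proximal tubule markers, 4 were lower in males and 0 passed in females (2 at an unadjusted p under 0.05), with a median log2 fold change of -0.25 and -0.07. Slc5a12 went the other way in males, by 0.63 (edgeR adjusted p = 0.0512). Of 8 thick limb and distal markers, 2 were higher and 1 lower in males, with a median of 0.16, and 1 was lower in females, with a median of 0.08. Their sum was between 4440 and 6411 CPM in Ctrlm and between 6057 and 6859 CPM in cKOm mice. Of 5 macrophage markers, 1 was lower in males, with a median of -0.46, and 0 passed in females (1 at an unadjusted p under 0.05), with a median of -0.43. Of 5 podocyte and 5 endothelial markers, 0 passed in either sex. At an unadjusted p under 0.05 there was 1 of each in males and 0 of each in females. Of 10 hepatocyte markers, 3 were lower in males, with a median of -1.88, and 0 passed in females (0 at an unadjusted p under 0.05), with a median of 0.01.

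Between control males and control females, where 16.8% of all genes tested passed in either direction, 2 of 10 matrix import peroxins were higher in males and 1 was lower. Of 11 other peroxisomal membrane proteins, 3 were higher in males and 0 lower. Far1 was higher in Ctrlm than in Ctrlf mice by 0.62 on the log2 scale (edgeR adjusted p = 4.6e-05), Acbd4 by 0.39 (0.0309) and Mtfr1 by 0.65 (4.14e-08). This comparison shares the Ctrlm mice with that of the genotypes in males.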
